A study of Homo sapiens with 12 samples.

Results

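Histone genes fall into a class that is read during DNA replication and a class that is read at all times, and both were followed here in 2 human melanoma cell lines with and without acquired resistance to a drug. Members were the rows of the count files whose symbol begins with HIST1H, HIST2H, HIST3H, HIST4H, H1F, H2AF or H3F. Of 26499 genes, 91 matched, and 2 rows named as pseudogenes (H3F3AP4 and HIST1H2APS1) were dropped. The 89 members comprised 72 replication-dependent (HIST) genes, 16 replacement histone genes and the antisense RNA H1FX-AS1, which was placed in neither class. The annotation types HIST2H2BA and HIST2H2BC as transcribed pseudogenes, although their symbols kept them among the 72.

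Replication-dependent histones package newly copied DNA and are made in S phase. Their messages usually carry no poly(A) tail and end a few bases after a short hairpin, the stem-loop, which the stem-loop binding protein SLBP holds during processing, translation and decay. Replacement histones are made throughout the cell cycle from ordinary polyadenylated messages and include H3.3, H2A.Z, macroH2A and the linker histone H1.0. Some replication-dependent genes also give polyadenylated messages, often in cells that are leaving the cycle or differentiating. The libraries were made from poly(A)-selected RNA, so that a HIST read comes from a message that passed such a selection.

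A375 and SKMel28 are melanoma lines with an activating BRAF mutation. Vemurafenib, an inhibitor of mutant BRAF, was kept on the resistant cells of both lines at 1 µmol/L, and the labels give no drug for sensitive cells. All 4 groups were grown in DMEM with 10% FBS, and each had 3 libraries (12 in all). The question of the study was what the IGF1 pathway does in resistance to BRAF and MEK inhibitors. Whether a resistant population was a single clone is not given in the sources used here, and the presence of the drug and the resistant state cannot be told apart. No label ties the 3 libraries of a group to independent cultures. The p-values therefore measure only how far these libraries spread, which may be technical. In bulk RNA, a smaller share of cells in S phase and less histone message per cycling cell cannot be told apart.

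Between 28496518 and 37721363 reads per library were assigned to genes. Melanocytic markers summed to 7049 to 9036 CPM (a gene's reads as counts per 1e+06 assigned reads, with library sizes scaled by TMM) in the SKMel28 libraries. In A375 the sum was 373 to 383 CPM in sensitive and 30.7 to 33.4 CPM in resistant libraries, and 4 of the 7 markers, the pigment genes TYR, DCT, PMEL and MLANA, had group means below 1 CPM. The other markers in sensitive A375 were SOX10 at 325 CPM, MITF at 39.6 and S100B at 10.9, and in resistant A375 they had 0.138, 30.9 and 0.0957 CPM. Reads aligned to more than 1 place were 2.09% to 2.44% of counted reads in resistant SKMel28 and 4.0% to 5.03% in the other 3 groups.

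The stem-loop was looked for because it separates the classes by the end of the message. The motif searched was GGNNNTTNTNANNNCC with 6 paired bases in the stem, G-T pairs allowed, on the sense strand of GENCODE 29 transcripts. It lay in 33 of the 72 replication-dependent genes (45.8%), in 1 of 16 replacement genes and in 85 of 19583 other protein-coding genes (0.434%). Of the 39 replication-dependent genes without it, 32 have no annotated base outside the coding sequence, so the place where a stem-loop would lie was not in their transcripts. In 24 of the 33 the annotated transcript runs at least 100 bases past the stem-loop. The stem-loops of members whose values follow are given as the DNA sense strand of GRCh38, with the 16-base motif in capitals and 5 bases on each side.
HIST2H2BE (chr1:149886183-149886208, minus strand): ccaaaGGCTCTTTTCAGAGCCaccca
HIST3H2A (chr1:228457364-228457389, minus strand): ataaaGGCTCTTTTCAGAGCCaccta
HIST1H2BG (chr6:26216213-26216238, minus strand): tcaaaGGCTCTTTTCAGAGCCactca
HIST1H2BH (chr6:26252050-26252075, plus strand): ccaaaGGCTCTTTTCAGAGCCactta
HIST1H2AC (chr6:26124664-26124689, plus strand): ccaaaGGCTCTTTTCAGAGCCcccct
HIST1H2BD (chr6:26158582-26158607, plus strand): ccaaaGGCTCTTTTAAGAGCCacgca
HIST1H4E (chr6:26204996-26205021, plus strand): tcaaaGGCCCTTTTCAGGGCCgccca
H2AFX (chr11:119094893-119094918, minus strand): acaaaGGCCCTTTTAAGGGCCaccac
HIST2H2BE, HIST3H2A, HIST1H2BG, HIST1H2BH and HIST1H2AC share the same 16 bases, as do 17 of the 33 replication-dependent genes with the motif in all. HIST1H2BD, HIST1H4E and H2AFX carry other versions. H2AFX, a replacement gene by name, is known to give both a stem-loop message and a polyadenylated one, and its annotated transcript runs 1044 bases past the stem-loop.

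Replacement genes took nearly all histone reads. Their summed CPM was 26.4 times that of the replication-dependent genes in resistant SKMel28 and 25.3 times in sensitive SKMel28, 30.9 times in resistant A375 and 33.3 times in sensitive A375, not corrected for transcript length. For 32 of the 72 replication-dependent genes, HIST1H2BK and HIST1H1C among them, the annotated model holds the coding sequence only. If the counting used such models, reads beyond it were not counted, and the replication-dependent sums would be too low. Of the 72 replication-dependent genes, 12 had no read in any library and 40 passed the filter on low counts. Of the 16 replacement genes, 4 had no read and 10 passed. A count of 0 over the 3 libraries of a group allows up to 3 reads, or 0.0292 to 0.0332 CPM depending on the group, for counting error only. Among the genes at 0 were the copies HIST2H2AA3 and HIST2H2AA4, HIST2H3A and HIST2H3C, and HIST2H4A and HIST2H4B, whose reads cannot be assigned to 1 copy.

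**Figure D1:**
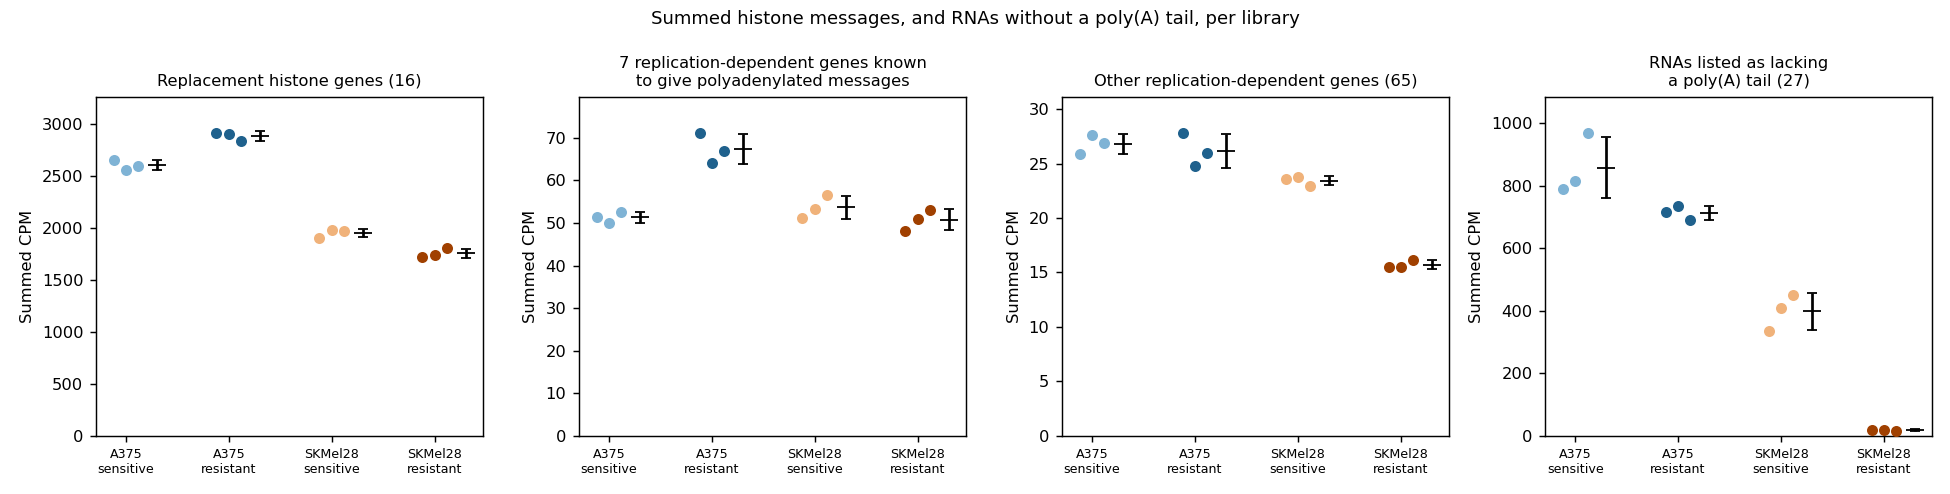
Summed CPM in each library (y axis, from 0) of the replacement genes, of the 7 replication-dependent genes known to give polyadenylated messages, of the other 65 replication-dependent genes and of 27 RNAs listed as lacking a poly(A) tail. Points are libraries, and the bar beside them is the mean ± SD of 3. The other replication-dependent genes sit at 15.5 to 16.2 CPM in resistant SKMel28 and at 23.0 to 23.8 CPM in sensitive SKMel28.

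A few genes made up most replication-dependent reads. HIST1H2BK, an H2B gene, gave 33.9% of them over all libraries and HIST1H1C, which encodes the linker histone H1.2, gave 18.7%. HIST3H2A gave 8.27% and HIST2H2BE 7.56%. The list of genes known to give polyadenylated messages held 7 (HIST1H1C, HIST1H2AC, HIST1H2BC, HIST1H2BD, HIST1H2BJ, HIST1H2BK and HIST2H2BE). Together these 7 genes gave 65.7% ± 1.16 of replication-dependent CPM in sensitive A375 and 72.0% ± 0.146 in resistant A375, 69.6% ± 1.38 in sensitive SKMel28 and 76.3% ± 0.557 in resistant SKMel28 (SD, n = 3). In both lines the resistant libraries all had the larger share.

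The summed classes moved in opposite directions in the 2 lines. Replication-dependent CPM was 78.1 ± 1.13 in sensitive and 93.6 ± 5.06 in resistant A375, and 77.1 ± 2.43 in sensitive and 66.5 ± 2.80 in resistant SKMel28 (SD, n = 3). Replacement CPM was 2603 ± 45.5 and 2884 ± 44.8 in A375, and 1951 ± 41.9 and 1755 ± 44.7 in SKMel28, again sensitive first. Resistant and sensitive libraries did not overlap in any of these 4 comparisons. With 3 libraries against 3 an exact test cannot go below 0.10, so no test was made of the sums.

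Net of rises and falls of single genes, the A375 difference in the replication-dependent sum lay in the 7 polyadenylated genes. The SKMel28 difference lay mostly outside them. In A375 the 7 genes summed to 51.3 ± 1.28 CPM in sensitive and 67.4 ± 3.51 in resistant libraries, while the other 65 genes summed to 26.8 ± 0.907 and 26.2 ± 1.55 CPM, which overlapped. In SKMel28 the 7 genes summed to 53.7 ± 2.74 CPM in sensitive and 50.8 ± 2.45 in resistant libraries, which overlapped, while the other 65 fell from 23.4 ± 0.409 to 15.7 ± 0.396 CPM, a ratio of 0.671. Without the 7, the log2 ratio of resistant to sensitive A375 went from 0.26 to -0.03. The other 65 include HIST3H2A, with a log2 fold change of 0.79 in A375 and -0.93 in SKMel28. Of the 65, 33 passed the filter, with median log2 fold changes of -0.53 in A375 and -0.37 in SKMel28. Medians over all genes tested were 0 and -0.01. The overlap of the A375 sums therefore does not mean that the single genes were unchanged.

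RNAs that normally lack a poly(A) tail were also compared between resistant and sensitive libraries. Of 27 such RNAs listed, 13 had no read and 10 were tested. Their sum was 334 to 450 CPM in sensitive and 15.6 to 19.4 CPM in resistant SKMel28. There 9 of the 10 fell, with a median log2 fold change of -2.47, beside 35.8% of all genes tested that fell. In A375 the sum was 789 to 969 CPM in sensitive and 691 to 736 CPM in resistant libraries. Here 4 of the 10 fell, with a median of -0.37, beside 26.3% of all genes tested. RN7SL1 and RN7SL2, the RNAs of the signal recognition particle, made up most of the sum, at 182 and 195 CPM in sensitive and 7.05 and 5.08 CPM in resistant SKMel28. The part of this in the replication-dependent values of SKMel28 was not tested.

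Single genes were tested in each line with edgeR over all 15506 genes that passed the filter, and a gene is said to rise or fall where its Benjamini-Hochberg adjusted p was below 0.05. In A375, 51.3% of all genes tested passed (25% higher and 26.3% lower), and 70% did in SKMel28 (34.2% higher and 35.8% lower). In A375, 5 of the 10 replacement genes rose and 1 fell, and in SKMel28 3 rose and 5 fell. In A375, 4 of the 40 replication-dependent genes rose and 6 fell, and in SKMel28 2 rose and 13 fell, so both totals lay below the share of all genes. Many of these 40 genes had group means under 1 CPM, where standard errors are wide. The lower share of calls therefore does not show that they changed less than other genes. Median log2 fold changes of the replication-dependent genes were -0.39 in A375 and -0.34 in SKMel28, beside 0 and -0.01 over all genes tested. Those of the replacement genes were 0.16 and -0.31.

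H1F0 showed the largest change of the replacement genes in SKMel28. It encodes the linker histone H1.0, which is known to accumulate in differentiated and resting cells, and lies at chr22:37805093-37807436 (GRCh38, plus strand). Its CPM was 112, 117 and 118 in sensitive SKMel28 and 2.83, 2.24 and 3.12 in resistant SKMel28. The resistant libraries held 92, 71 and 107 reads. In A375 its CPM was 374.9, 359 and 364 in sensitive and 585, 565 and 558 in resistant libraries. The groups did not overlap in either line, and the 2 lines moved in opposite directions. The log2 fold change was 0.64 ± 0.04 (SE, adjusted p = 1.8e-19) in A375 and -5.40 ± 0.06 (adjusted p = 6.1e-45) in SKMel28. The difference between these changes was 6.04 ± 0.07 (adjusted p = 5.9e-44). Other genes within 5 Mb of H1F0, 122 in number, had a median log2 fold change of 0.07 in A375 and -0.16 in SKMel28 (quartiles -0.63 to 0.14).

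H1F0 held 14.1% of replacement CPM in sensitive and 19.7% in resistant A375, and 5.93% in sensitive and 0.155% in resistant SKMel28. Without it, the replacement sum was 2237 ± 37.6 CPM in sensitive and 2314 ± 35.0 in resistant A375, which overlapped by a narrow margin (highest sensitive 2276, lowest resistant 2275). In SKMel28 it was 1835 ± 39.0 and 1752 ± 44.5 CPM, also overlapping.

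**Figure D2:**
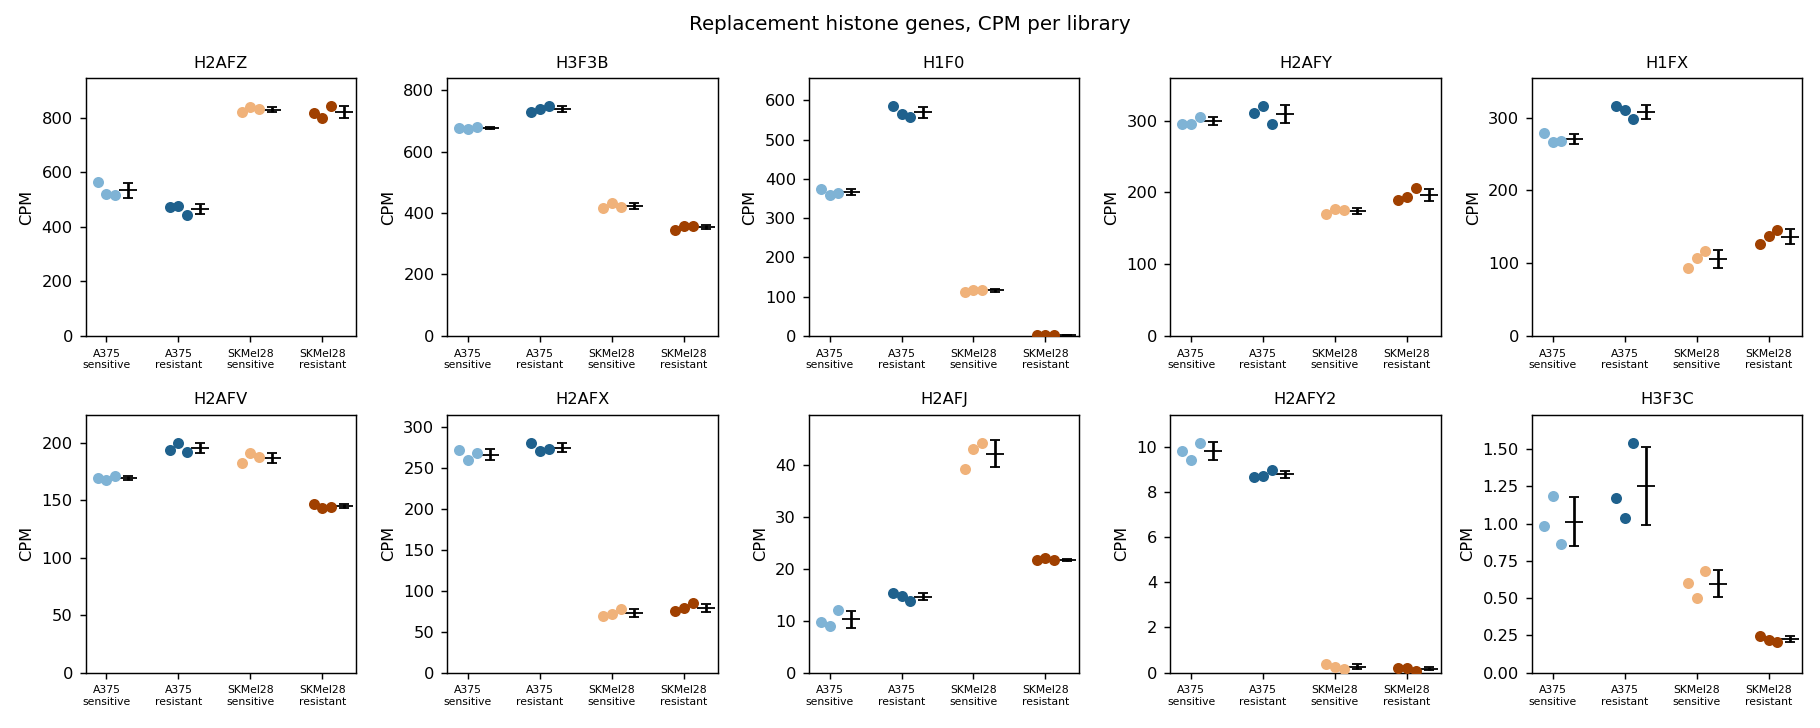
CPM (y axes, each from 0) of the 10 replacement genes that passed the filter, in the 12 libraries by group. Points are libraries and the bar beside them is the mean ± SD of 3. H1F0 is near 0 in resistant SKMel28 and highest in resistant A375.

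H1FX, the gene of the linker histone H1.X, rose in both lines. Its CPM was 271 ± 6.56 in sensitive and 308 ± 9.23 in resistant A375, and 106 ± 12.2 and 137 ± 9.92 in SKMel28. Its log2 fold change was 0.18 ± 0.06 (adjusted p = 0.022) in A375 and 0.37 ± 0.07 (adjusted p = 0.00014) in SKMel28. In A375 the call was lost without sensitive replicate 2 (0.17) or sensitive replicate 3 (0.18), and the adjusted p ran from 4.5e-08 to 0.068 over 12 alternatives. The antisense RNA H1FX-AS1 overlaps 22.9% of the exons of H1FX, and its CPM was 0.654 ± 0.219 in sensitive and 1.08 ± 0.212 in resistant SKMel28 (log2 fold change 0.73, adjusted p = 0.030) and 2.87 ± 0.294 and 2.38 ± 0.238 in A375 (-0.27, adjusted p = 0.32). The file names describe unstranded counting, so reads of the pair cannot be told apart where they overlap. Reads marked as ambiguous between genes (1.14% to 1.39% per library) were left out, so reads of that stretch may be counted for neither gene.

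The H2A.Z genes, H2AFZ and H2AFV, differed in their pattern. H2A.Z is the variant placed beside gene starts by the SRCAP and p400 remodellers. H2AFZ had 565, 520 and 517 CPM in sensitive and 473, 477 and 444 CPM in resistant A375, and fell there by 0.20 on the log2 scale (SE 0.03, adjusted p = 4.6e-06). In SKMel28 it had 830 ± 8.16 CPM in sensitive and 819 ± 21.9 in resistant libraries (log2 fold change -0.02, adjusted p = 0.66), and the groups overlapped. H2AFV had 170, 168 and 171 CPM in sensitive and 193, 200 and 192 CPM in resistant A375. It had 182, 191 and 188 CPM in sensitive and 146, 143 and 144 CPM in resistant SKMel28. Its log2 fold change was 0.20 ± 0.04 (adjusted p = 4.4e-06) in A375 and -0.37 ± 0.04 (adjusted p = 1.6e-12) in SKMel28, with no overlap in either line.

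H3F3B, one of the genes of H3.3, rose in A375 from 676 ± 3.61 to 738 ± 10.2 CPM (log2 fold change 0.13 ± 0.03, adjusted p = 0.00064). It fell in SKMel28 from 423 ± 10.3 to 353 ± 6.54 CPM (-0.26 ± 0.03, adjusted p = 1.4e-09), and the groups did not overlap in either line. H3F3A, which encodes the same protein, had only 1 to 11 reads per library and did not pass the filter. The dropped row H3F3AP4, a pseudogene that shares sequence with H3F3A, had 635 to 1598 reads. Its CPM was 31.5 ± 0.777 in sensitive and 33.2 ± 2.32 in resistant A375, and 21.8 ± 1.11 and 40.4 ± 5.31 in SKMel28, where its log2 fold change was 0.89 (adjusted p = 2.9e-14). Whether those reads belong to H3F3A was not tested, so the level of H3F3A is uncertain. H3F3C, the H3.5 gene, had 0.596 ± 0.0901 CPM in sensitive and 0.223 ± 0.021 CPM in resistant SKMel28 (log2 fold change -1.40, adjusted p = 0.0053), and 1.01 ± 0.164 and 1.25 ± 0.261 CPM in A375 (0.30, adjusted p = 0.45).

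H2AFJ, the gene of H2A.J, a variant known from senescent cells, had 9.70, 8.93 and 12.1 CPM in sensitive and 15.4, 14.7 and 13.9 CPM in resistant A375. It had 39.2, 42.9 and 44.2 CPM in sensitive and 21.6, 22.0 and 21.7 CPM in resistant SKMel28. The groups were separate in both lines and moved in opposite directions, with log2 fold changes of 0.52 ± 0.09 (adjusted p = 2.9e-06) and -0.95 ± 0.08 (adjusted p = 6.5e-15). The difference between lines was 1.48 ± 0.12 (adjusted p = 7.5e-15).

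H2AFX encodes H2A.X, which is phosphorylated at DNA breaks. It had 266 ± 6.61 CPM in sensitive and 274 ± 5.23 CPM in resistant A375 (log2 fold change 0.05, adjusted p = 0.36). In SKMel28 it had 72.8 ± 4.64 and 79.4 ± 4.88 CPM, overlapping groups that passed the test (0.12 ± 0.04, adjusted p = 0.013). The call was lost without resistant replicate 3 (0.08), without sensitive replicate 1 (0.09) and on library-size scaling (0.09), and its adjusted p ran from 0.00063 to 0.12 over 12 alternatives.

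MacroH2A, a large H2A variant with a globular tail domain, is encoded by H2AFY and H2AFY2. H2AFY had 174 ± 3.88 CPM in sensitive and 197 ± 8.68 CPM in resistant SKMel28 (log2 fold change 0.18 ± 0.04, adjusted p = 5.0e-05). In A375 it had 299 ± 5.70 and 309 ± 12.6 CPM (0.05, adjusted p = 0.29). Without resistant replicate 3 the A375 value was 0.11 and was called, and its adjusted p ran from 0.013 to 0.53 over 12 alternatives. H2AFY2 was higher in A375 than in SKMel28, at 9.80 ± 0.393 CPM in sensitive and 8.78 ± 0.158 CPM in resistant A375 against 0.266 ± 0.102 and 0.164 ± 0.0688 CPM in SKMel28, and passed the test in neither line.

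Levels of the replacement genes were compared with each other per length, as CPM per kilobase of all annotated exons. In sensitive A375 the order was H2AFZ (232 ± 11.7), H1FX (180 ± 4.36), H2AFX (165 ± 4.09), H1F0 (156 ± 3.39) and H3F3B (110 ± 0.589). In resistant A375 H1F0 led at 243 ± 6.12, followed by H1FX (205 ± 6.13) and H2AFZ (202 ± 7.75), which lay within 1 SD of each other. In SKMel28 H2AFZ led at 360 ± 3.54 in sensitive and 356 ± 9.49 in resistant libraries. Next in sensitive SKMel28 came H1FX (70.4 ± 8.08) and H3F3B (68.9 ± 1.68), which lay within 1 SD, then H1F0 (49.4 ± 1.32) and H2AFX (45.1 ± 2.87). Resistant SKMel28 had H1FX at 90.7 ± 6.59, H3F3B at 57.6 ± 1.07, H2AFX at 49.2 ± 3.03 and H1F0 at 1.16 ± 0.191 CPM per kilobase. The order depended on the length used. Per kilobase of the longest annotated transcript, a length chosen after seeing the data, H3F3B led in resistant A375 at 265 ± 3.68, followed by H2AFZ (247 ± 9.50) and H1F0 (243 ± 6.12). On that length H2AFZ still led in the other 3 groups and H3F3B came next, at 242 ± 1.3 in sensitive A375, 152 ± 3.69 in sensitive SKMel28 and 127 ± 2.35 in resistant SKMel28. No such value is given for HIST genes, since 32 of the 72 have coding-only models.

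Among replication-dependent genes, HIST2H2BE showed the largest rise in A375. It encodes an H2B protein and lies at chr1:149884459-149886652 (GRCh38, minus strand). It had 5.37, 3.75 and 5.12 CPM in sensitive and 13.5, 12 and 12.4 CPM in resistant A375, and 3.73, 3.43 and 3.58 CPM in sensitive and 2.06, 2.90 and 2.51 CPM in resistant SKMel28. Resistant libraries were higher in A375 and lower in SKMel28, without overlap. The log2 fold change was 1.41 ± 0.13 (adjusted p = 2.3e-12) and -0.53 ± 0.17 (adjusted p = 0.0051), and these changes differed by 1.93 ± 0.21 (adjusted p = 1.1e-10).

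HIST3H2A, an H2A gene at chr1:228456979-228457873 (minus strand), followed the same pattern. It had 7.43, 5.82 and 6.85 CPM in sensitive and 12.6, 12.2 and 9.99 CPM in resistant A375, and 4.63, 3.96 and 5.96 CPM in sensitive and 2.33, 2.55 and 2.74 CPM in resistant SKMel28. Its groups were separate in both lines. The log2 fold change was 0.79 ± 0.13 (adjusted p = 1.5e-06) and -0.93 ± 0.16 (adjusted p = 2.6e-06), and the difference was 1.72 ± 0.21 (adjusted p = 1.2e-09).

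HIST1H1C had 13.8, 14.4 and 14.3 CPM in sensitive and 21.0, 18.4 and 17.6 CPM in resistant A375, without overlap, and rose by 0.42 ± 0.09 on the log2 scale (adjusted p = 9.3e-05). In SKMel28 it had 11.8, 14.6 and 14.7 CPM in sensitive and 11.2, 11.7 and 12.4 CPM in resistant libraries, which overlapped (log2 fold change -0.22 ± 0.10, adjusted p = 0.040). That call was lost with DESeq2 (-0.21), with no filter (-0.20) and without resistant replicate 1 (-0.18), resistant replicate 2 (-0.21), sensitive replicate 2 (-0.16) or sensitive replicate 3 (-0.16), with adjusted p from 0.0053 to 0.18 over 12 alternatives. The difference between lines was 0.64 (adjusted p = 3.7e-05).

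HIST1H2BK, with the most reads of the class, was called in neither line. It had 24.8 ± 0.238 CPM in sensitive and 26.9 ± 1.71 in resistant A375 (log2 fold change 0.12 ± 0.07, adjusted p = 0.15), and 27 ± 1.47 and 28.3 ± 1.25 in SKMel28 (0.07 ± 0.07, adjusted p = 0.36). Without resistant replicate 2 the A375 value was 0.20 and was called, with adjusted p from 0.021 to 0.26 over 12 alternatives. HIST1H2AC also passed in neither, with log2 fold changes of 0.06 and -0.10. HIST1H2BD had 2.87 ± 0.618 CPM in sensitive and 4.03 ± 0.581 in resistant A375, overlapping (0.49 ± 0.19, adjusted p = 0.028). Its call was lost without resistant replicate 2 (0.49), resistant replicate 3 (0.44), sensitive replicate 1 (0.49) or sensitive replicate 2 (0.34), with adjusted p from 0.0089 to 0.18 over 12 alternatives. In SKMel28 its value was -0.02 (adjusted p = 0.95).

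Of the other genes known to give polyadenylated messages, HIST1H2BJ had 0.828 ± 0.131 CPM in sensitive and 0.242 ± 0.157 in resistant SKMel28, without overlap (log2 fold change -1.75 ± 0.49, adjusted p = 0.0015), and its A375 value of 0.62 was not called (adjusted p = 0.26). HIST1H2BC was called in neither line, at -0.46 and -0.36. Of the 7 genes together, A375 had 3 that rose and none that fell, beside 25% and 26.3% of all genes tested. SKMel28 had 3 that fell and none that rose, beside 35.8% and 34.2%. Among these calls, HIST1H2BD in A375 lost its call in 4 of 12 alternatives and HIST1H1C in SKMel28 in 6 of 12. The list was not independent of earlier results on these libraries.

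**Figure D3:**
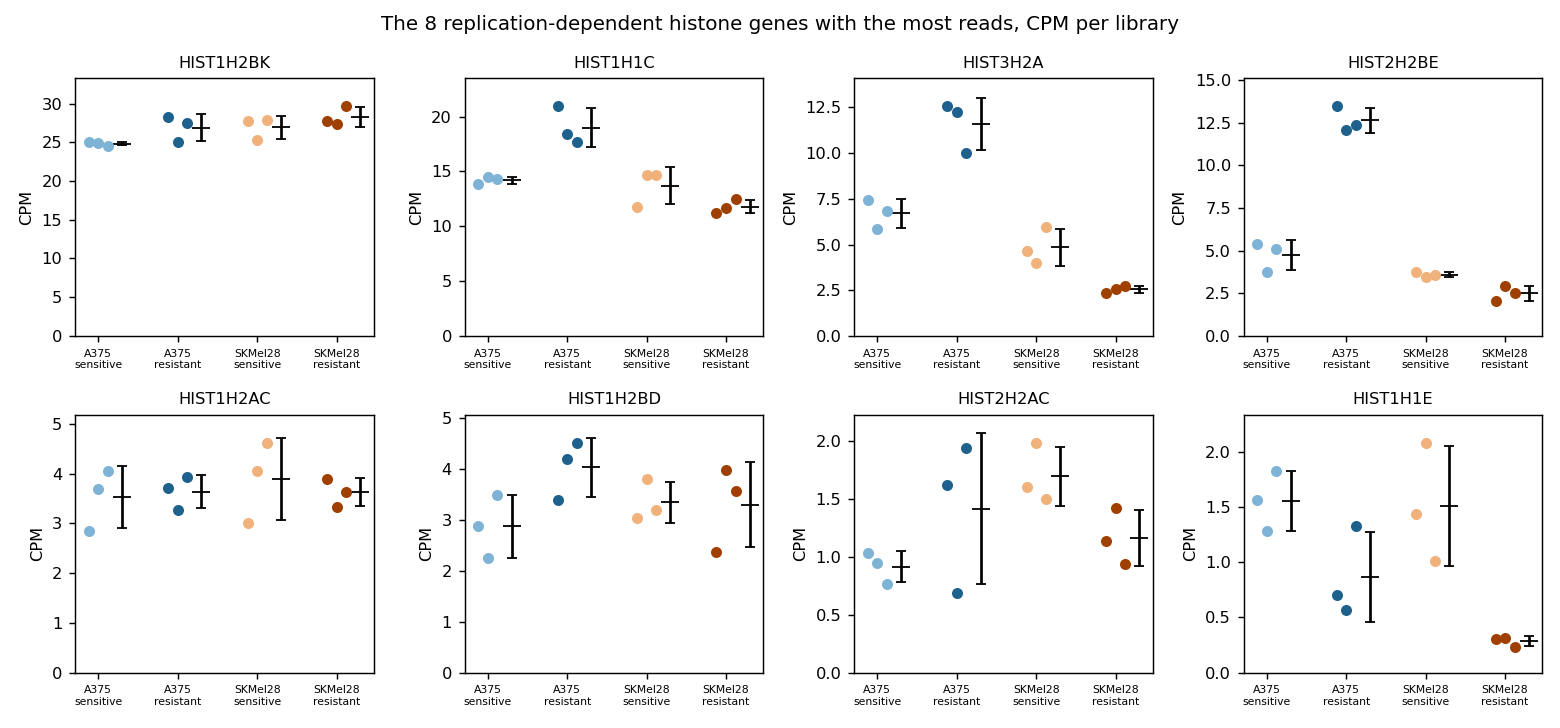
CPM (y axes, each from 0) of the 8 replication-dependent genes with the highest mean CPM, in the 12 libraries by group. Points are libraries and the bar beside them is the mean ± SD of 3. HIST2H2BE and HIST3H2A are highest in resistant A375 and lowest in resistant SKMel28.

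HIST1H1E, the gene of the linker histone H1.4, was lower in resistant cells of both lines. It had 1.43, 2.08 and 1.01 CPM in sensitive and 0.307, 0.315 and 0.233 CPM in resistant SKMel28, without overlap (log2 fold change -2.39 ± 0.40, adjusted p = 1.1e-06). In A375 it had 1.56, 1.28 and 1.83 CPM in sensitive and 0.699, 0.565 and 1.33 CPM in resistant libraries, which overlapped (-0.85 ± 0.33, adjusted p = 0.028). The A375 call was lost with DESeq2 (-0.81) and without resistant replicate 1 (-0.68), resistant replicate 2 (-0.59), sensitive replicate 1 (-0.85) or sensitive replicate 3 (-0.72), with adjusted p from 0.0050 to 0.18 over 12 alternatives. The change differed between lines by 1.54 (adjusted p = 0.010), and that call was lost without A375 resistant replicate 3 (1.13) or SKMel28 sensitive replicate 2 (1.23), with adjusted p from 0.0036 to 0.075 over 17 alternatives.

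HIST1H2BG and HIST1H2BH, H2B genes of the chromosome 6 cluster, fell in SKMel28. HIST1H2BG had 0.767, 0.773 and 0.586 CPM in sensitive and 0.215, 0 and 0.146 CPM in resistant libraries (log2 fold change -2.51 ± 0.56, adjusted p = 0.00013), and 0.302, 0.579 and 0.565 CPM against 0.755, 0.951 and 0.938 CPM in A375 (0.89, adjusted p = 0.082). Its A375 value was called at 0.89 when the line was fitted alone, with adjusted p from 0.047 to 0.32 over 12 alternatives, and its changes in the 2 lines differed by 3.39 ± 0.71 (adjusted p = 5.8e-05). HIST1H2BH had 1.33, 2.28 and 2.02 CPM in sensitive and 0.891, 0.630 and 0.466 CPM in resistant SKMel28 (-1.50 ± 0.38, adjusted p = 0.00064). In A375 its value was -0.23 (adjusted p = 0.72).

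HIST1H2AM went the other way. It had 0.333, 0.873 and 0.619 CPM in sensitive and 1.20, 0.914 and 1.17 CPM in resistant SKMel28 (log2 fold change 0.84, adjusted p = 0.037), and 1.44, 1.16 and 0.964 CPM in sensitive and 0.531, 0.773 and 0.484 CPM in resistant A375 (-1.0, adjusted p = 0.015). No groups overlapped. The A375 call was lost without resistant replicate 1 (-0.89), resistant replicate 3 (-0.84) or sensitive replicate 1 (-0.84), with adjusted p from 0.012 to 0.094 over 12 alternatives. The SKMel28 call was lost with DESeq2 (0.85) and without resistant replicate 1 (0.77), resistant replicate 3 (0.80), sensitive replicate 1 (0.56) or sensitive replicate 3 (0.86), with adjusted p from 0.012 to 0.20 over 12 alternatives. Its gene model overlaps HIST1H3J over 88.0% of its exons, so its reads are uncertain.

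The remaining calls were of genes with group means under 1 CPM in the line of the call and were singled out after their values were seen. In SKMel28 the other genes that fell were HIST2H2BF (-1.57), HIST1H3D (-1.79), HIST1H4A (-2.46), HIST1H2BN (-2.12), HIST2H3D (-1.56) and HIST1H4H (-0.98), and HIST1H2BL rose (1.08). The model of HIST1H3D overlaps AL031777.3 over 100% of its exons, and HIST2H3D shares 51.3% of its 100-base stretches with other genes. The reads of these genes are therefore uncertain. In A375 the other genes that fell were HIST1H2AG (-1.35), HIST1H3G (-1.68), HIST1H4C (-1.40) and HIST1H4E (-1.34). The 6 falls in A375 were 3 with DESeq2 and 3 without resistant replicate 1, resistant replicate 2 or sensitive replicate 2, and none of the 6 was among the 3 without resistant replicate 1. The 2 rises in SKMel28 were 1 with DESeq2, 1 without resistant replicate 2 or sensitive replicate 3, and 0 without resistant replicate 1 or resistant replicate 3. By family, SKMel28 falls comprised 6 of 15 tested H2B genes, 2 of 4 H1 genes, 1 of 9 H2A genes, 2 of 6 H3 genes and 2 of 6 H4 genes, beside 35.8% of all genes that fell there. In A375, falls comprised 1 of 4 H1 genes, 2 of 9 H2A genes, 1 of 6 H3 genes and 2 of 6 H4 genes, beside 26.3% of all genes. No tested H2B gene was called lower there and 2 of the 15 were called higher. The median log2 fold change of those 15 was still -0.26, beside 0 over all genes tested, so the lack of calls does not mean that none declined. Families were not tested against each other.

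**Figure D4:**
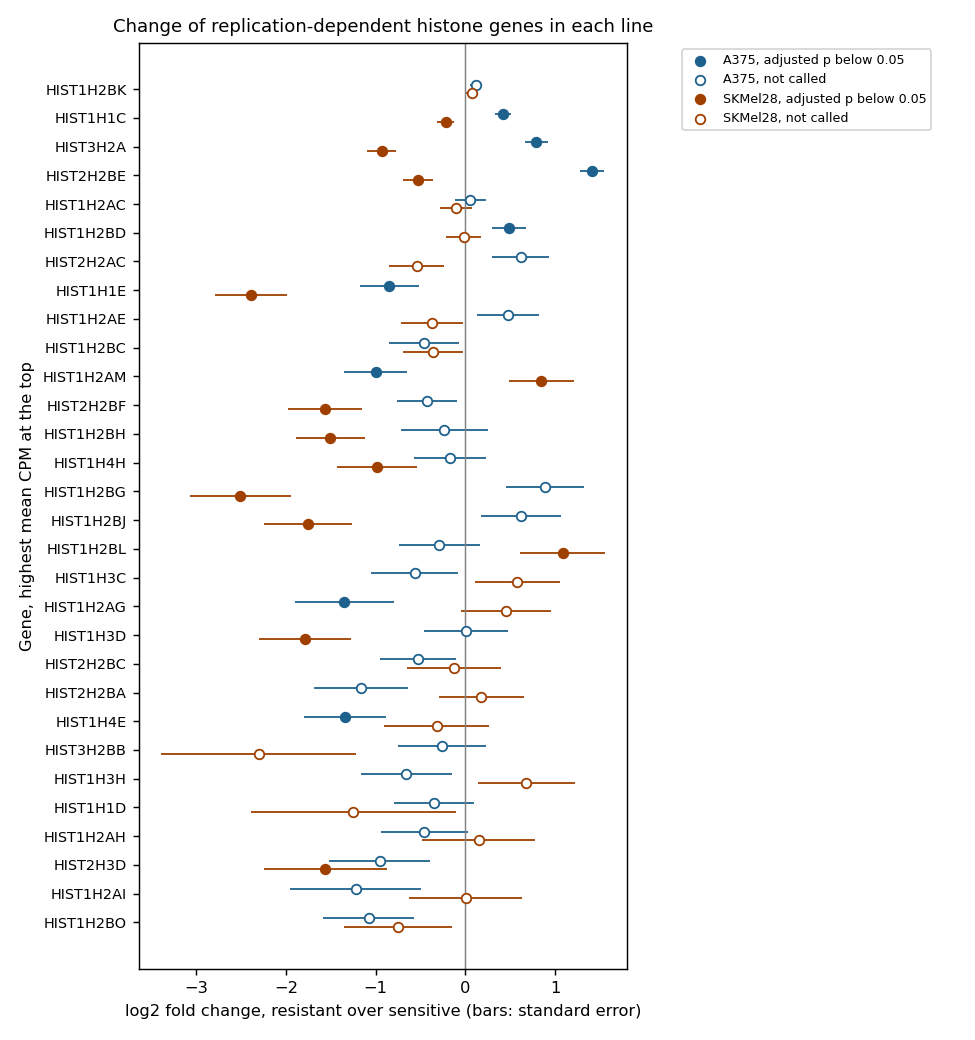
Log2 fold change of resistant over sensitive cells (x axis) with its standard error for the 30 replication-dependent genes with the highest mean CPM (y axis, highest at the top), in A375 (blue) and SKMel28 (brown). Filled points had an adjusted p below 0.05. HIST2H2BE is at 1.41 in A375 and -0.53 in SKMel28, and standard errors widen toward the bottom as reads become fewer.

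Whether the change itself differed between lines was tested as the A375 change minus the SKMel28 change, in which 63.8% of all genes passed (31.4% higher and 32.4% lower). Of the 40 replication-dependent genes, 12 passed, 9 with a higher value in A375 and 3 with a lower one. Of the 10 replacement genes, 7 passed, 5 higher and 2 lower. The 4 replication-dependent genes with the smallest adjusted p were HIST2H2BE, HIST3H2A, HIST1H1C and HIST1H2BG. The 3 lower ones were 1 without SKMel28 resistant replicate 3 or sensitive replicate 3, and 6 without SKMel28 sensitive replicate 1.

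Sensitive cells of the 2 lines also differed, and 82.9% of all genes passed that test (40.5% higher and 42.4% lower in SKMel28). Of the 10 replacement genes, 3 were higher in SKMel28 (H2AFZ, H2AFV and H2AFJ) and 7 were lower, with log2 differences of 2.05 for H2AFJ, 0.64 for H2AFZ and 0.14 (adjusted p = 0.00038) for H2AFV. H2AFV was not higher on library-size scaling (-0.0083, adjusted p = 0.83), and its adjusted p ran from 0.00020 to 0.83 over 11 alternatives chosen after seeing the data. Of the 7, H3F3C lost its call with DESeq2 (-0.78), with no filter (-0.76) and without A375 sensitive replicate 1 (-0.78) or 2 (-0.63) or SKMel28 sensitive replicate 1 (-0.76) or 2 (-0.65), with adjusted p from 0.018 to 0.15 over 11 alternatives. H1F0 was lower by 1.66 (log2 difference -1.66) and H2AFX was at -1.87. Of the 40 replication-dependent genes, 5 were higher and 11 lower in SKMel28, and the 5 were 3 without A375 sensitive replicate 3. HIST1H2BH was higher at 2.06 (adjusted p = 1.4e-05). HIST1H2BM and HIST1H4I, singled out after their values were seen, had no reads in sensitive SKMel28 and 27 and 37 reads in sensitive A375. Against a floor of 3 reads over the group these are ratios of 7.94 and 10.9, which leave out the counting error of the A375 reads. Genes with so few reads can pass the filter through the groups where they are high. Their excess in A375 is therefore no support for a difference between the lines. Library-size scaling moved the median of all genes in this comparison from -0.03 to -0.18.

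The clusters were set beside their neighbours. Of the 72 replication-dependent genes, 55 lie on chromosome 6, 16 on chromosome 1 and 1 on chromosome 12. Around HIST2 on chromosome 1, 130 other genes within 5 Mb had a median log2 fold change of -0.05 in A375 and -0.37 in SKMel28. Around HIST3, 63 genes had -0.04 and -0.16, and around HIST1, 149 genes had 0.04 and -0.04. HIST2H2BE and HIST3H2A, at 1.41 and 0.79 in A375, stood outside the quartiles of their neighbours there, which ran from -0.27 to 0.17 around HIST2 and from -0.31 to 0.11 around HIST3. In SKMel28, HIST2H2BE at -0.53 lay inside the quartiles around HIST2 (-1.07 to 0.04), while HIST3H2A at -0.93 lay below those around HIST3 (-0.56 to 0.18).

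Of the 8 replacement genes that passed the test in SKMel28, 5 lay within the quartiles of their neighbours there, and H3F3C was not set beside neighbours. H1FX was at 0.37, with quartiles of 0.10 to 0.70 and a median of 0.42 over 62 neighbours. H2AFV was at -0.37, with quartiles of -0.98 to -0.12 and a median of -0.55 over 48. H3F3B was at -0.26, with quartiles of -0.94 to -0.07 and a median of -0.36 over 108. H2AFY and H2AFX also lay inside theirs in SKMel28, while H1F0 and H2AFJ lay outside theirs in both lines. H1FX in A375, at 0.18, lay above its quartiles of -0.07 to 0.15.

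Promoters of HIST2H2BE and HIST3H2A are shown because these genes had the smallest adjusted p of the class for the difference between lines. They are the 250 bases before the annotated start, from RefSeq (GRCh38.p14), printed on the gene's strand. Capitals mark the CCAAT box, the TATA box in the form TATAAA, and the octamer ATTTGCAT, each searched on both strands.
HIST2H2BE (chr1:149886683-149886932, minus strand): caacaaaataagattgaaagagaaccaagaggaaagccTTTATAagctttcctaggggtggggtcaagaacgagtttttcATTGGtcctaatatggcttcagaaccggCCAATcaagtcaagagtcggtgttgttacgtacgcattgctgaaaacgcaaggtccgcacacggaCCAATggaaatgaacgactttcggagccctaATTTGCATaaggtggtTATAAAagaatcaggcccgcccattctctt
HIST3H2A (chr1:228457874-228458123, minus strand): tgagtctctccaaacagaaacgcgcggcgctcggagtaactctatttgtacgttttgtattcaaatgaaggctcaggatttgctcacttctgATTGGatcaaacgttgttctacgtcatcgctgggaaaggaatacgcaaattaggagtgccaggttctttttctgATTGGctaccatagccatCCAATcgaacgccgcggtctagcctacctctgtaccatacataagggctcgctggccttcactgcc
The HIST2H2BE window holds all 3 motifs and overlaps that of the divergent gene HIST2H2AC by 235 bases. The HIST3H2A window holds CCAAT alone and overlaps that of HIST3H2BB by 229 bases. Within the first pair, HIST2H2AC had 0.914 ± 0.137 CPM in sensitive and 1.41 ± 0.652 in resistant A375 (log2 fold change 0.62, adjusted p = 0.10), and 1.69 ± 0.255 and 1.16 ± 0.244 in SKMel28 (-0.54, adjusted p = 0.11). Its A375 value was 0.98 and was called without resistant replicate 2, with adjusted p from 0.0064 to 0.41 over 12 alternatives. Within the second pair, HIST3H2BB had 0.727 ± 0.239 and 0.610 ± 0.165 CPM in A375 (-0.26, adjusted p = 0.69). In SKMel28 it had 0, 1 and 14 reads in sensitive and 0, 2 and 1 reads in resistant libraries (-2.30, adjusted p = 0.056). Among 65 replication-dependent genes with a promoter in the table, 84.6% held CCAAT, 67.7% TATAAA and 40.0% the octamer, against 37.0%, 13.0% and 2.03% of 27305 genes. In the 14 replacement genes with a promoter the shares were 85.7%, 28.6% and 7.14%. Of 18 H2B genes, 77.8% held the octamer, which is known as an element of H2B promoters. A match describes letters in the window only.

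Genes that make and handle histones were followed as lists, to be read against the 51.3% of all genes that passed in A375, the 70% in SKMel28 and the 63.8% between lines. SLBP rose in both, from 126 ± 6.45 to 138 ± 1.87 CPM in A375 (log2 fold change 0.14, adjusted p = 0.0048) and from 87.4 ± 4.18 to 101 ± 2.30 CPM in SKMel28 (0.21, adjusted p = 3.9e-05). NPAT, which switches on replication-dependent histone genes, fell in SKMel28 from 46.7 ± 2.24 to 36.5 ± 3.05 CPM (-0.36, adjusted p = 1.7e-06), and in A375 its value was 0.02 (adjusted p = 0.82). Of 22 genes of histone transcription, 3-prime processing and decay, A375 had 3 higher and 6 lower (median log2 fold change -0.03) and SKMel28 had 10 higher and 8 lower (median -0.04), and 7 passed higher and 8 lower between lines. FIP1L1, a cleavage and polyadenylation factor, fell in A375 (-0.26) and rose in SKMel28 (0.96). ZCCHC11, which adds uridines to RNA ends, likewise fell in A375 (-0.63) and rose in SKMel28 (0.61). CSTF2, the cleavage stimulation factor subunit CstF-64, fell in SKMel28 (-0.82), and CPSF2 rose in A375 (0.23).

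Of 23 histone chaperones, A375 had 1 higher and 14 lower (median -0.12) and SKMel28 had 9 higher and 5 lower (median 0.04). Between lines 4 passed higher and 13 lower, and all-gene shares were 25% higher and 26.3% lower in A375, 34.2% and 35.8% in SKMel28, and 31.4% and 32.4% between lines. RBBP4, a histone-binding subunit of CAF-1, had 139 ± 2.02 CPM in sensitive and 83.0 ± 0.312 in resistant A375 (log2 fold change -0.74, adjusted p = 6.1e-21) and rose in SKMel28 (0.99, adjusted p = 1.9e-26). NASP, a carrier of H3 and H4, fell in A375 (-0.64, adjusted p = 4.7e-18). ASF1B, which hands over H3 and H4, fell in SKMel28 (-1.0, adjusted p = 7.7e-23). Of 9 genes of remodellers that exchange variant H2A, 2 were called higher and 4 lower in each line, and 2 higher and 3 lower between lines. Named there were RUVBL1 (0.17), INO80 (-0.22) and ZNHIT1 (0.17) in A375, and SRCAP (0.26), VPS72 (-0.34) and YEATS4 (-0.22) in SKMel28.

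Of 16 S-phase genes, A375 had 11 lower and none higher (median -0.18), while SKMel28 had 8 higher and 6 lower (median 0.09). PCNA, the sliding clamp of replication, fell in A375 from 227 ± 7.98 to 153 ± 6.93 CPM (log2 fold change -0.57, adjusted p = 8.5e-16) and rose in SKMel28 from 189 ± 7.96 to 290.1 ± 15.5 CPM (0.61, adjusted p = 1.5e-17). MCM2, a subunit of the replicative helicase and itself a histone binder, fell in A375 (-0.32) and rose in SKMel28 (1.06). E2F1 fell in both (-0.75 and -0.23), as did RRM2 (-0.34 and -0.26). Beside these medians, the replication-dependent histone genes had -0.39 in A375 and -0.34 in SKMel28, and their summed CPM had log2 ratios of 0.26 and -0.21.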

How the data were processed

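Per the labels' protocols, poly(A)-enriched mRNA libraries were sequenced from 4 groups of 3 samples. The authors deposited raw counts for each gene symbol. HISAT2, StringTie and GRCh38.p12 are named in the submitters' processing notes, while the file names point to STAR and unstranded counting, so the aligner is not settled. Unassigned reads (15.1% to 19.5% per library) were left out.

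Counts were filtered with filterByExpr, scaled by TMM and fitted in 1 robust quasi-likelihood model with 4 group means (edgeR 4.0.16, R 4.3.3, 8 residual degrees of freedom). P-values were two-sided and adjusted (Benjamini-Hochberg) over 15506 genes, and called below 0.05. Errors of log2 fold changes are standard errors. CPM is given as mean ± SD. The model was tested on simulated data.

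The members and lists were chosen with earlier results of these data known. Genes named were the tested replacement genes, the 8 replication-dependent genes of highest mean CPM, the called replication-dependent genes of at least 1 CPM without overlap between groups (up to 5 a direction and line), the 4 of smallest adjusted p between lines, the 7 polyadenylated genes, SLBP, NPAT and up to 3 called genes per list and line, of which 1 is not reported here. Positions, transcripts and stem-loops come from GENCODE 29, in which all 89 members were found, and promoters from RefSeq, which held 79. Alternatives were other normalizations, DESeq2 1.42.0, no filter, each line fitted alone, a replicate block and leaving out each library. Among RNAs named under the last rule, SNORD17, RMRP and SCARNA2 fell in both lines.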

Additional observations from a re-analysis of the deposited data

Results flagged for a closer look

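Of 23 histone genes named, 15 had a change that differed between the lines (edgeR's quasi-likelihood interaction test, adjusted p below 0.05). The 23 were picked in part by this test and by calls in these libraries, so their share is not comparable with that of all genes. Without that choice, 12 of the 40 tested replication-dependent genes and 7 of the 10 tested replacement genes passed, beside 63.8% of all genes tested. Values are the A375 change minus the SKMel28 change on the log2 scale, and a positive value means that the gene went higher, or fell less, in A375. H1F0 stood at 6.04 (adjusted p = 5.9e-44), HIST1H2BG at 3.39, HIST1H2BJ at 2.37 (adjusted p = 0.0018), HIST2H2BE at 1.93, HIST3H2A at 1.72 and H3F3C at 1.71 (adjusted p = 0.0064). HIST1H1E had 1.54, H2AFJ 1.48, HIST2H2AC 1.16 (adjusted p = 0.020), HIST1H1C 0.64, H2AFV 0.57 (adjusted p = 1.4e-13) and H3F3B 0.38 (adjusted p = 3.9e-10). Negative values were found for HIST1H2AM at -1.84 (adjusted p = 0.0015), H2AFZ at -0.18 (adjusted p = 0.0012) and H2AFY at -0.13 (adjusted p = 0.027).

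For HIST2H2AC the call was lost without A375 resistant replicate 3 (0.90), SKMel28 resistant replicate 3 (1.02) or SKMel28 sensitive replicate 2 (1.02), with adjusted p from 0.0013 to 0.085 over 17 alternatives. For H2AFY it was lost with RLE size factors (-0.10), library-size scaling (-0.07) and DESeq2 (-0.10), and without A375 resistant replicate 1 (-0.11), A375 resistant replicate 3 (-0.07), A375 sensitive replicate 3 (-0.11) or SKMel28 resistant replicate 3 (-0.10), with adjusted p from 0.0081 to 0.25 over 17 alternatives. These alternatives for single genes between lines were chosen after seeing the data. The sum of RNAs without a poly(A) tail was 15.6 to 19.4 CPM in resistant SKMel28 against 334 to 450 CPM in sensitive SKMel28. In A375 it was 691 to 736 CPM in resistant and 789 to 969 CPM in sensitive libraries, while the replication-dependent sum was higher in resistant A375. The part of these RNAs in the replication-dependent values was not tested.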

How the results depend on the processing

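Of 1195 single-gene values under other settings, 1100 kept their direction and side of the threshold, 63 lost the call, 17 gained one, 14 changed sign without a call and 1 lost the call with a change of sign (H2AFV between sensitive cells on library-size scaling, -0.0083). The replication-dependent sum without the 7 polyadenylated genes had a log2 ratio of -0.035 in A375 (0.26 with them) and -0.58 in SKMel28 (-0.21 with them). On library-size scaling the replacement log2 ratio was 0.18 in A375 (0.15 by TMM) and -0.19 in SKMel28 (-0.15 by TMM). Without H1F0, chosen after seeing the data, it was 0.049 in A375 and -0.067 in SKMel28. With DESeq2 the replication-dependent genes lower in A375 numbered 3, in place of 6, and those higher in SKMel28 1, in place of 2. Replacement genes lower between lines numbered 1 with RLE, library-size scaling or DESeq2, in place of 2. The cause was not tested.

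Leaving out each library in turn gave 3 to 4 replication-dependent genes lower in A375 and 0 to 3 higher in SKMel28. Between lines it gave 1 to 6 replication-dependent and 1 to 4 replacement genes lower, and between sensitive cells 3 to 6 replication-dependent genes higher in SKMel28. The replacement count between lines was 1 without resistant replicate 1 or 3 or sensitive replicate 3 of A375 or resistant replicate 3 of SKMel28, and 4 without sensitive replicate 3 of SKMel28.

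Whether replicate numbers pair the libraries was judged only from residual correlations. Those of equal numbers were 0.02, -0.0014 and -0.0016 in A375 and 0.07, -0.0083 and 0.04 in SKMel28. Those of unequal numbers ran from -0.02 to 0.02 in A375 and from -0.07 to 0.03 in SKMel28. A weak pairing in SKMel28 cannot be settled from these values. With the replicate block, replication-dependent genes numbered 4 higher and 5 lower in A375, 2 and 11 in SKMel28, 9 and 3 between lines and 4 and 11 between sensitive cells, and replacement genes 5 and 1, 3 and 5, 5 and 3, and 3 and 6. Among the 23 named histone genes the block gave 1 call more, H1FX between lines (-0.18, adjusted p = 9.0e-04), and took 2, both between sensitive cells: H3F3C (-0.77, adjusted p = 0.063) and HIST1H2BJ (0.92, adjusted p = 0.073). Low counts limit the HIST genes below 1 CPM.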
